A study of Mus musculus with 18 samples.

Results

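When dendritic cells (DCs) leave a tissue for the lymph node, they switch on a shared set of genes for movement, survival and control of T cells, and cells in this state are called migratory, mature or regulatory DCs. *Fscn1*, *Il4i1*, *Cacnb3*, *Marcksl1*, *Anxa3*, *Samsn1*, *Tmem123*, *Birc3*, *Aldh1a2* and *Relt* are genes named in this program. Their entries were found by symbol, including symbols that share an entry, and all 10 were present among the 62197 gene entries of the table. The program can be reached after contact with microbial products such as lipopolysaccharide (LPS), which Toll-like receptor signalling senses, and without any microbe, when a DC matures during homeostasis. Both routes are known to involve NF-κB transcription factors, and the resulting cells can either activate T cells or keep them tolerant.

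The measurements are bulk RNA-seq of mouse bone marrow-derived DCs grown for 10 days in medium with GM-CSF, in 6 groups of 3 libraries and 18 libraries in all. The study used them to ask whether the change of shape that a DC undergoes in a narrow space alters transcription through cPLA_2_, the phospholipase encoded by *Pla2g4a*, which senses stretching of the nuclear envelope. For each of cPLA_2_ WT and cPLA_2_ KO there are nonconfined cells, taken when culture ended, cells squeezed to 3 µm and collected 4 h after confinement, and unconfined cells given 100 ng ml-1 LPS for 30 min, washed and collected the next day. That time is from the labels, and the methods for stimulating cells give 25 min. The text on treatment is the same in all 18 labels and describes LPS alone; the titles and characteristics, which name LPS for 6 libraries, were followed. Time after treatment therefore differs between the confined and the LPS groups.

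The knockout is conditional: a floxed *Pla2g4a* was deleted by a Cre under the *Itgax* (CD11c) promoter, so that deletion depends on cells switching this promoter on. Whether the cPLA_2_ WT controls carry floxed alleles or the Cre is not given in the sources used here. The methods for cell culture give donors of 6 to 8 weeks, while the methods for animals give 8 to 14 weeks and name both sexes. Neither the sex of the donors of each library nor whether marrow was pooled is given. A figure legend of the study calls the libraries biological replicates, but the labels do not say whether they come from separate animals or cultures, so the p-values measure the spread between these libraries. Reads assigned to genes numbered 33027230 in the shallowest and 61300021 in the deepest library, the median being 40950397. The fewest reads behind any value of a member was 216, for *Aldh1a2*. Over the 10 members and 6 groups, the coefficient of variation of 3 libraries had a median of 3.47%. Levels are given as normalized counts, which are reads divided by a size factor of the library and not by gene length, so they are compared between groups and not between genes.

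*Pla2g4a* (identifier GSMG0002495, chromosome 1, 149705372 to 149837041, minus strand, 18 exons in its canonical transcript) was measured first, as a check of the genotype labels. It was present at 697, 686 and 770.4 normalized counts in the nonconfined cPLA_2_ WT libraries and at 548, 542 and 533 in the nonconfined cPLA_2_ KO libraries. In confined cells the values were 1369, 1430.3 and 1321 for cPLA_2_ WT and 923, 871 and 919.5 for cPLA_2_ KO. cPLA_2_ KO libraries were thus below cPLA_2_ WT libraries in both conditions without overlap, with log2 fold changes of -0.41 ± 0.06 (adjusted p = 1.90e-04) and -0.60 ± 0.06 (adjusted p = 3.81e-08), and transcripts remained. Here and below, values after ± are standard errors and adjusted p-values are from limma. Counts over the whole gene do not show which exons the remaining transcripts hold.

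The LPS libraries did not follow their labels. Those labelled cPLA_2_ WT held 1005, 969 and 967 normalized counts of *Pla2g4a* and those labelled cPLA_2_ KO held 1065, 1032 and 1028, so the libraries labelled knockout were not lower, at 0.09 on the log2 scale. The Y-linked gene *Ddx3y*, which is transcribed in male cells, was present at 1271, 0 and 662 in the libraries labelled cPLA_2_ WT and at 2.12, 1476 and 783 in those labelled cPLA_2_ KO, and *Eif2s3y*, also on the Y chromosome, followed the same libraries. In the other 4 groups *Ddx3y* lay between 0 and 3.05 in the cPLA_2_ WT libraries and between 874 and 1036 in the cPLA_2_ KO libraries, and *Xist*, which female cells transcribe, was present at 12153 to 33681 in all 18. The cPLA_2_ KO libraries of these 4 groups thus held transcripts of male and of female cells, with *Xist* at 12153 to 24835. The cPLA_2_ WT libraries held *Xist* and hardly any *Ddx3y*. Whether cells of several donors were mixed was not tested. Genotype and the sex of the donors therefore cannot be told apart in the nonconfined and confined groups. For these reasons the LPS groups are named below as libraries labelled cPLA_2_ WT or cPLA_2_ KO, and results on LPS pool both labels. The change of each member with LPS is given for each label too; gene lists and comparisons of confined with LPS libraries are given for the pooled labels alone.

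The label of DCs was checked with marker genes. The 10 DC genes listed, among which *Cd74* was the most abundant, summed to 421379 to 447148 normalized counts in nonconfined cPLA_2_ WT, 499135 to 529001 in nonconfined cPLA_2_ KO, 356149 to 384175 in confined cPLA_2_ WT, 349131 to 363444 in confined cPLA_2_ KO, 515575 to 609772 in LPS libraries labelled cPLA_2_ WT and 519110.0 to 596757 in those labelled cPLA_2_ KO. The sums follow *Cd74*, *H2-Ab1* and *H2-Aa*, the most abundant of the list, and other genes of it differed in direction. Between the genotypes in nonconfined cells these 3 were called higher in cPLA_2_ KO libraries (4.78% of tested genes) and 1, *Itgax*, lower (4.11%), with a difference of -0.29 ± 0.06. In confined cells 1, *H2-DMb2*, was called higher in cPLA_2_ KO libraries (18.8%) and 2 lower (20.6%), with differences of -1.15 ± 0.10 for *Batf3* and -0.19 ± 0.07 for *Zbtb46*. With confinement 9 of the 10 fell in cPLA_2_ WT cells (28.4%) and 10 in cPLA_2_ KO cells (23.4%), and with LPS 7 rose (37.2%) and 2 fell (34.3%). The difference between the genotypes in the change with confinement was called negative for 5 (15.6%) and positive for 0 (10.2%). Its median was -0.31 over the 10 and 0.05 over all tested genes. The culture protocol also yields granulocytes and macrophages, which it removes by how strongly they adhere to the dish. Markers of these cells were present all the same and moved with genotype and treatment. The 10 neutrophil genes, led by *S100a9*, summed to 240265 to 245291 in nonconfined cPLA_2_ WT, 334958 to 372139 in nonconfined cPLA_2_ KO, 146028 to 155429 in confined cPLA_2_ WT and 331720.0 to 347639 in confined cPLA_2_ KO libraries, and to 292648 to 312875 and 279515 to 316764 in the LPS libraries labelled cPLA_2_ WT and cPLA_2_ KO. The 7 eosinophil genes, led by *Prg2*, summed to 30341 to 30572, 69353 to 74532, 8012 to 8549, 19390.3 to 20384, 25335 to 43439 and 25175 to 43235 in the same order.

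The 10 macrophage genes, led by *Csf1r*, summed to between 53712 in LPS libraries and 78689 in nonconfined cPLA_2_ KO libraries. For the 8 mast cell and basophil genes, led over all libraries by *Hdc*, the sums were 7630.5 to 7883 in nonconfined cPLA_2_ WT, 11106 to 11490.4 in nonconfined cPLA_2_ KO, 15515 to 16173 in confined cPLA_2_ WT and 6886 to 7067 in confined cPLA_2_ KO libraries. *Hdc* alone accounted for a mean of 12369.5 of the sum in confined cPLA_2_ WT libraries. Between the genotypes in confined cells 5 of the 8 were called higher in cPLA_2_ KO libraries, where 18.8% of all tested genes were, and 1, *Hdc*, lower, where 20.6% were. The LPS libraries lay between 16332 and 19310.3 for this list, of which *Hdc* made up a mean of 10841 and 10976 for the labels cPLA_2_ WT and cPLA_2_ KO; with LPS 2 of the 8 genes rose (37.2% of tested genes) and 6 fell (34.3%). The 7 lymphocyte genes, led by *Cd3g*, ran from 396 in LPS to 3051 in nonconfined cPLA_2_ KO libraries, and the 4 plasmacytoid DC genes, led by *Bst2*, from 7264 in confined cPLA_2_ KO to 27944 in LPS libraries. The 5 genes of dividing cells, led by *Top2a*, ran from 12880.3 in LPS to 32916 in nonconfined cPLA_2_ WT libraries. A sum follows the most abundant genes of its list, so the other genes need not share its direction. No gene on these lists was at 0 in all 18 libraries, and the natural killer cell genes *Ncr1* and *Klrb1c* were under 10 in each of them. In bulk libraries, fewer cells of a type and less RNA per cell cannot be told apart, and the part of these cells in the results below was not tested.

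Each gene was compared on log2(normalized count + 1) with limma, and a gene was called at an adjusted p under 0.05 among 17875 tested genes, which include all 10 members. With confinement of cPLA_2_ WT DCs, 6 of the 10 members rose (*Il4i1*, *Marcksl1*, *Anxa3*, *Samsn1*, *Tmem123* and *Birc3*), against 28.2% of all tested genes, and 4 fell (*Fscn1*, *Cacnb3*, *Aldh1a2* and *Relt*), against 28.4%. With a log2 fold change past 1 as well, 4 members rose (*Il4i1*, *Marcksl1*, *Samsn1* and *Birc3*) against 11.4% of tested genes, and 3 fell (*Cacnb3*, *Aldh1a2* and *Relt*) against 7.62%. The median of the members was 0.31 and that of all tested genes -0.0055 on the log2 scale. The members thus moved in both directions when cPLA_2_ WT cells were confined.

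In cPLA_2_ KO DCs *Birc3* was the single member that rose with confinement, where 22.8% of tested genes did, and 7 members fell (*Fscn1*, *Il4i1*, *Cacnb3*, *Marcksl1*, *Tmem123*, *Aldh1a2* and *Relt*), where 23.4% of tested genes did. Past a log2 fold change of 1, 0 members rose (6.43% of tested genes) and 3 fell (*Fscn1*, *Cacnb3* and *Aldh1a2*; 5.53% of tested genes). The count of 0 is by limma with both criteria; at an unadjusted p the same 8 members passed, and *Birc3* was also called by edgeR and DESeq2, with log2 fold changes of 0.28 and 0.29. The difference between the genotypes in the change with confinement was tested as an interaction. A negative value means a smaller rise, a larger fall or a fall in place of a rise in cPLA_2_ KO cells. It was negative for 8 members (the 10 without *Aldh1a2* and *Relt*) against 15.6% of tested genes, and positive for 1, *Relt*, against 10.2%. The median interaction was -1.01 over the members and 0.05 over all tested genes.

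Comparing the genotypes within confined cells, the same 8 members were lower in cPLA_2_ KO than in cPLA_2_ WT libraries (20.6% of tested genes) and *Relt* was higher (18.8% of tested genes); *Aldh1a2* differed by -0.02 ± 0.11 (adjusted p = 0.934). In nonconfined cells *Fscn1* was called higher in cPLA_2_ KO libraries, with 4.78% of tested genes, and *Aldh1a2* lower, with 4.11%. Between LPS libraries labelled cPLA_2_ WT and cPLA_2_ KO, limma called 0 members and 0% of tested genes higher and 0% lower; at an unadjusted p under 0.05 it found 890 genes, none of them a member. In the same comparison edgeR and DESeq2 called 0 genes adjusted, and 812 and 831 unadjusted, with 0 members among them. These tests did not pair libraries. By *Ddx3y*, LPS replicates 1, 2 and 3 labelled cPLA_2_ WT (1271, 0 and 662) resembled replicates 2, 1 and 3 labelled cPLA_2_ KO (1476, 2.12 and 783). Within these pairs *Marcksl1*, *Cacnb3*, *Tmem123* and *Birc3* were each higher in the library labelled cPLA_2_ KO, and the other members went both ways. The pairs were set after seeing *Ddx3y* in these libraries. How many of all tested genes were higher in each pair was not counted, so nothing about the members follows from this. A test with these pairs was not run, and tests on pooled labels treat the 6 libraries as separate.

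With LPS, 8 members rose against 37.2% of tested genes, and *Aldh1a2* and *Relt* fell, against 34.3%. Of these, 7 rose past a log2 fold change of 1 (15.6% of tested genes; *Anxa3* did not) and *Relt* fell past it (13.4%). Set against the LPS libraries, confined cPLA_2_ WT libraries were lower for 10 members (29.8% of tested genes) and higher for 0 (24.5%), whereas confined cPLA_2_ KO libraries were lower for 9 (32.5%) and higher for *Relt* (30.3%). The count of 0 is by limma at an adjusted and at an unadjusted p under 0.05, and by edgeR and DESeq2 no member was higher either. The confinement and LPS comparisons share the nonconfined libraries, so their values are given side by side and were not correlated.

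These calls rest on the authors' size factors. Normalized totals were larger in LPS libraries, with means of 48718670 and 48721816 for the labels cPLA_2_ WT and cPLA_2_ KO, than in nonconfined cPLA_2_ WT libraries, with a mean of 34125100. Scaling each library to the same total moved the median of all genes by -0.22 on the log2 scale for confinement of cPLA_2_ WT cells, by 0.19 for the interaction, by 0.15 for the genotypes in confined cells and by -0.48 for LPS. The shift was 0.28 for confined cPLA_2_ WT and 0.44 for confined cPLA_2_ KO cells against LPS, and -0.03 for confinement of cPLA_2_ KO cells.

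Under that scaling the share of called genes that were higher went from 49.8% to 32.7% for confinement of cPLA_2_ WT cells, from 39.5% to 70.7% for the interaction, from 49.3% to 44.5% for confinement of cPLA_2_ KO cells and from 53.8% to 42.0% and 47.7% to 69.7% for the genotypes in nonconfined and confined cells. It went from 52.0% to 26.4% for LPS, from 45.2% to 75.0% for confined cPLA_2_ WT and from 48.2% to 77.2% for confined cPLA_2_ KO cells against LPS. Under that scaling *Anxa3* was no longer called for confinement of cPLA_2_ WT cells, the interaction or the genotypes in confined cells, and *Samsn1* and *Relt* changed sign in confined cPLA_2_ WT cells against LPS. The interaction of *Aldh1a2*, not called in the main analysis, was called under that scaling (0.62). The other calls made for members in the main analysis of confinement, the interaction, the genotypes in confined cells and LPS were made under that scaling too.

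**Figure D1:**
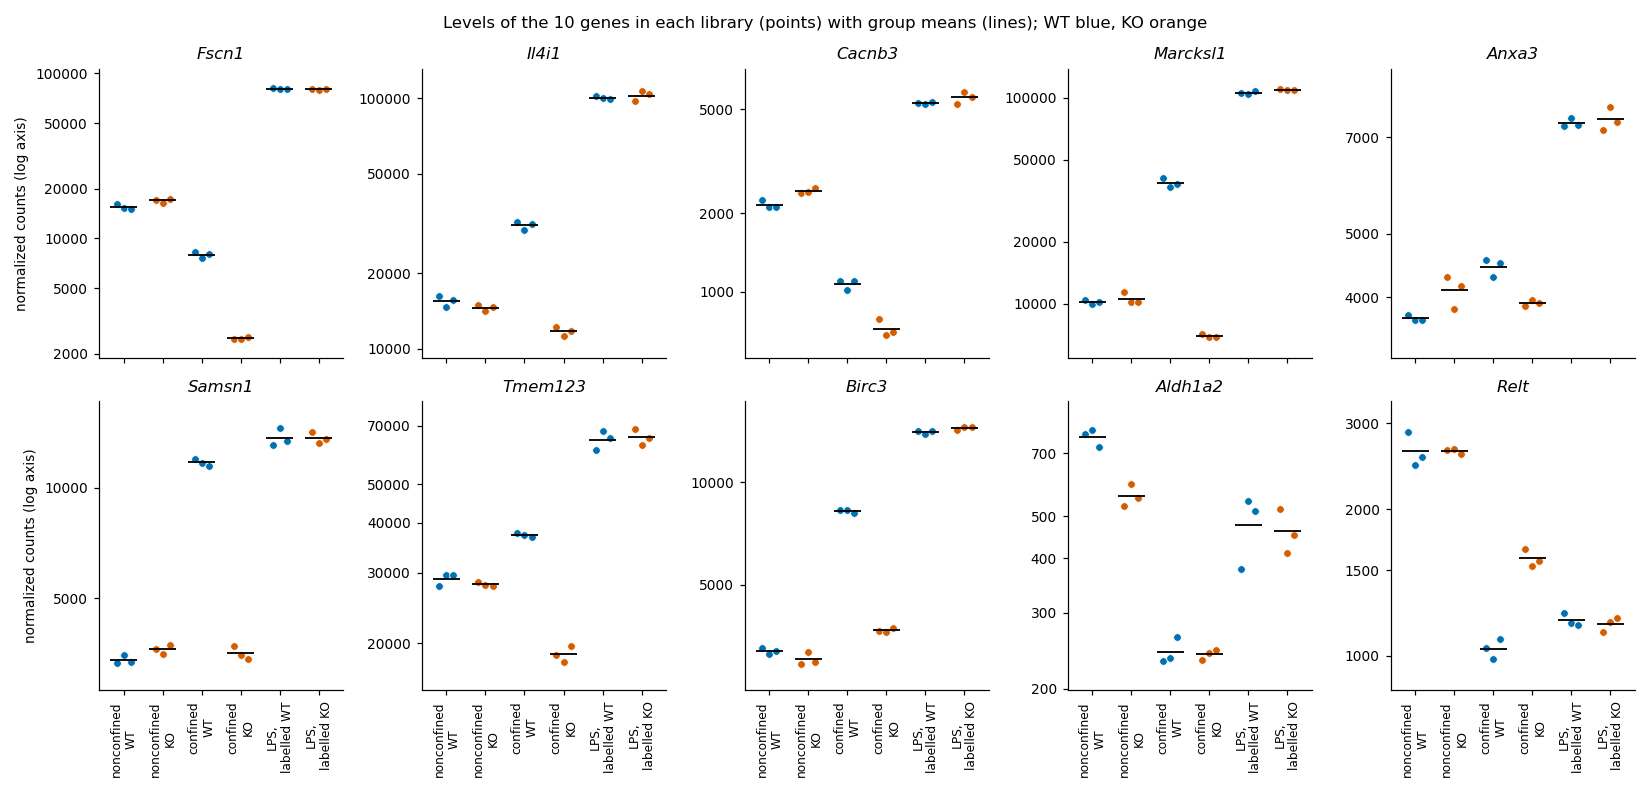
Normalized counts of each of the 10 genes on a log axis, with a point for each library, a line for the mean of the 3 libraries of a group, cPLA_2_ WT in blue and cPLA_2_ KO in orange; LPS groups are as labelled. *Marcksl1* lies between 37015 and 40617 in confined cPLA_2_ WT and between 6877 and 7109 in confined cPLA_2_ KO libraries, and *Aldh1a2* between 232 and 263 in confined cPLA_2_ WT libraries.

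Of the members that act on the cytoskeleton, *Marcksl1* (identifier GSMG0037279, chromosome 4, 129407374 to 129409774, plus strand, 2 exons in its canonical transcript) encodes a protein that binds membrane phospholipids, calmodulin and actin filaments. Nonconfined libraries held 10425, 9977 and 10227 normalized counts in cPLA_2_ WT and 11462, 10167 and 10177 in cPLA_2_ KO cells. After confinement the values were 40617, 37015 and 38289 in cPLA_2_ WT and 7109, 6877 and 6897 in cPLA_2_ KO cells. All confined cPLA_2_ WT libraries thus lay above the nonconfined libraries of both genotypes, and all confined cPLA_2_ KO libraries lay below them. Mean levels rose 3.78-fold in cPLA_2_ WT cells, a log2 fold change of 1.92 ± 0.05 (adjusted p = 7.18e-19), and fell in cPLA_2_ KO cells, with a log2 fold change of -0.60 ± 0.05 (adjusted p = 5.58e-10). The interaction was -2.52 ± 0.06 (adjusted p = 9.22e-18), the largest in size among the 10 members. With LPS the 6 libraries held 104595 to 109703, with a median of 108637, which is 10.4 times the mean of nonconfined libraries; the log2 fold change was 3.37 ± 0.03 (adjusted p = 2.24e-26), with 3.38 for the label cPLA_2_ WT and 3.37 for the label cPLA_2_ KO. Confined cPLA_2_ WT cells therefore stood between nonconfined and LPS-treated cells, at -1.48 ± 0.04 against LPS.

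*Fscn1* (identifier GSMG0041377, chromosome 5, 142946110 to 142958944, plus strand, 5 exons in its canonical transcript) encodes fascin, which bundles actin filaments into the dendrites and filopodia of mature DCs and is widely used as a marker of them. Its level was 16066, 15255 and 15005 normalized counts in nonconfined cPLA_2_ WT and 17172, 16363 and 17384 in nonconfined cPLA_2_ KO libraries. Confined cells held 8264, 7633 and 8008 in cPLA_2_ WT and 2461, 2462 and 2508 in cPLA_2_ KO libraries. Confinement thus went with less *Fscn1* in both genotypes, and the confined cPLA_2_ KO libraries were the lowest of the 18. The log2 fold change was -0.95 ± 0.04 (adjusted p = 8.59e-15) in cPLA_2_ WT and -2.78 ± 0.04 (adjusted p = 8.58e-22) in cPLA_2_ KO cells, and the interaction was -1.82 ± 0.06 (adjusted p = 1.60e-16). LPS libraries lay between 79322 and 81554, with a median of 80124, a rise of 2.31 ± 0.03 (adjusted p = 1.06e-24), with 2.39 and 2.23 for the labels cPLA_2_ WT and cPLA_2_ KO. Confined cPLA_2_ KO cells were -5.02 on the log2 scale from LPS-treated cells, and the LPS mean was 32.4 times theirs, the widest gap of any member between these groups. In confined cPLA_2_ WT cells *Fscn1* thus fell where *Marcksl1* rose.

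Among 19 tested genes of actin bundling and of linkage between membrane and cytoskeleton, 9 rose and 5 fell with confinement of cPLA_2_ WT cells (median 0.07), and 6 rose and 7 fell in cPLA_2_ KO cells (median 0.0042). *Marcks*, the paralog of *Marcksl1*, changed by 1.26 ± 0.05 in cPLA_2_ WT cells with confinement, by -1.15 ± 0.08 in the interaction and by 1.84 ± 0.04 with LPS. *Myo10*, a myosin of filopodia, changed by 2.01 ± 0.08 in cPLA_2_ WT and 0.69 ± 0.08 in cPLA_2_ KO cells with confinement, and *Evl*, the largest fall of the list in cPLA_2_ WT cells, by -0.53 ± 0.07. With LPS 11 of these genes rose and 6 fell, and the interaction was negative for 7 and positive for 1. Of all tested genes 28.2% rose and 28.4% fell with confinement of cPLA_2_ WT cells, 22.8% and 23.4% in cPLA_2_ KO cells, 37.2% and 34.3% with LPS, and the interaction was negative for 15.6% and positive for 10.2%.

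The members include a pair of metabolic enzymes, of which *Il4i1* encodes a secreted L-amino acid oxidase that uses up phenylalanine and other aromatic amino acids and limits the proliferation of T cells. Its entry (identifier GSMG0048293, chromosome 7, 44465510 to 44490232, plus strand, 9 exons in its canonical transcript) is shared with *Nup62* and *Il4i1b*, and *Nup62*, a nuclear pore gene, spans 44465354 to 44481258 in GENCODE, so that the reads cannot be divided between them and the values of *Il4i1* are uncertain. The entry held 16232, 14681 and 15601 normalized counts in nonconfined cPLA_2_ WT and 14944, 14167 and 14648 in nonconfined cPLA_2_ KO libraries. After confinement it held 32021, 29916 and 31570.5 in cPLA_2_ WT and 12153, 11279 and 11813 in cPLA_2_ KO libraries. The nonconfined groups overlapped, the confined cPLA_2_ WT libraries were all above them and the confined cPLA_2_ KO libraries all below. Confinement changed the entry by 1.01 ± 0.05 (adjusted p = 5.35e-14) in cPLA_2_ WT and by -0.31 ± 0.05 (adjusted p = 9.86e-06) in cPLA_2_ KO cells, with an interaction of -1.32 ± 0.07 (adjusted p = 6.67e-13). LPS libraries held 97194 to 106755, with a median of 100833, and the change was 2.75 ± 0.03 (adjusted p = 8.54e-25), with 2.69 and 2.81 for the labels cPLA_2_ WT and cPLA_2_ KO. Confined cPLA_2_ WT cells were again between nonconfined and LPS-treated cells, with -1.70 ± 0.04 against LPS.

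Other enzymes and transporters through which myeloid cells act on amino acids were counted beside *Il4i1*. Of 13 tested, 10 rose and 2 fell with confinement of cPLA_2_ WT cells (median 2.04), 8 rose and 2 fell in cPLA_2_ KO cells (median 1.08), and the interaction was negative for 8 and positive for 0. *Nos2*, which makes nitric oxide from arginine, had a mean of 19.5 normalized counts in nonconfined cPLA_2_ WT libraries, 14309.9 after confinement of cPLA_2_ WT and 76.2 after confinement of cPLA_2_ KO cells, with an interaction of -7.43 ± 0.31. *Kmo*, of the kynurenine pathway, fell in both genotypes, at -2.10 ± 0.07 for cPLA_2_ WT and -1.87 ± 0.07 for cPLA_2_ KO cells on the log2 scale. With LPS 10 of the 13 rose and 3 fell. Among all tested genes the shares that rose and fell were 28.2% and 28.4% in cPLA_2_ WT cells, 22.8% and 23.4% in cPLA_2_ KO cells and 37.2% and 34.3% with LPS, with 15.6% negative and 10.2% positive for the interaction.

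*Aldh1a2* (identifier GSMG0057028, chromosome 9, 71123071 to 71203525, plus strand, 14 exons in its canonical transcript) encodes a retinaldehyde dehydrogenase, the enzyme with which DCs make retinoic acid, a signal that favours regulatory T cells and homing to the gut. It ranged over 724 to 790.5 normalized counts in nonconfined cPLA_2_ WT and 529 to 594 in nonconfined cPLA_2_ KO libraries. In confined libraries it ranged over 232 to 263 in cPLA_2_ WT and 233 to 246 in cPLA_2_ KO cells, which overlap, and lay below every nonconfined library. The log2 fold change with confinement was -1.65 ± 0.11 (adjusted p = 5.78e-11) in cPLA_2_ WT and -1.21 ± 0.11 (adjusted p = 1.78e-08) in cPLA_2_ KO cells. The interaction of 0.44 ± 0.16 (adjusted p = 0.0514) did not pass the threshold; it passed with the same total per library (0.62), with a pseudocount of 5, with a filter of 100, on the compared groups alone, and without nonconfined cPLA_2_ KO replicate 2 (0.48), confined cPLA_2_ WT replicate 3 (0.49) or LPS replicate 1 or 2 of either label (0.44 for each), and its adjusted p ran from 0.00729 to 0.107 over the alternatives. With LPS the libraries held 379 to 544, with a median of 483, and overlapped the nonconfined cPLA_2_ KO libraries; the log2 fold change was -0.48 ± 0.08 (adjusted p = 1.53e-05), with -0.69 for the label cPLA_2_ WT and -0.28 for the label cPLA_2_ KO. With the same total per library this change was -0.98. *Aldh1a2* was thus lowest in confined cells of both genotypes. Its LPS libraries had the widest spread among the members, with a coefficient of variation of 18.4% for the label cPLA_2_ WT. The LPS libraries with most *Ddx3y*, replicate 1 labelled cPLA_2_ WT and replicate 2 labelled cPLA_2_ KO, held 379 and 412. Those with the least, replicates 2 and 1 of these labels, held 544 and 520, and replicate 3 of each held 514 and 453. A link between *Ddx3y* and *Aldh1a2* was not tested.

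Of 22 genes of retinoic acid synthesis, transport and response, 14 were tested. With confinement 6 rose and 2 fell in cPLA_2_ WT cells (median 0.11), and 8 rose and 1 fell in cPLA_2_ KO cells (median 0.52). *Aldh1a3*, the paralog tested, went from a mean of 2.09 to 43.6 normalized counts with confinement of cPLA_2_ WT cells. The response gene *Tgm2* rose by 3.24 ± 0.06 in cPLA_2_ WT and 1.68 ± 0.06 in cPLA_2_ KO cells, whereas the receptor gene *Rara* changed by -0.69 ± 0.05 and -0.52 ± 0.05. With LPS 6 of the 14 rose and 5 fell, and the interaction was positive for 2 and negative for 4. For comparison, of all tested genes 28.2% rose and 28.4% fell with confinement of cPLA_2_ WT cells, 22.8% and 23.4% in cPLA_2_ KO cells, 37.2% and 34.3% with LPS, and the interaction was negative for 15.6% and positive for 10.2%.

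*Birc3* (identifier GSMG0057795, chromosome 9, 7848704 to 7873171, minus strand, 9 exons in its canonical transcript) encodes an inhibitor of apoptosis, a ubiquitin ligase at TNF receptors that is itself a known target of NF-κB. Nonconfined libraries held 3258, 3136 and 3192 normalized counts in cPLA_2_ WT and 2915, 3174 and 2956 in cPLA_2_ KO cells, and these ranges overlap. In confined cells it was present at 8313, 8319 and 8114 in cPLA_2_ WT and 3664, 3638 and 3741 in cPLA_2_ KO libraries. Confined libraries of both genotypes lay above the nonconfined ones, and the confined cPLA_2_ WT libraries lay above the confined cPLA_2_ KO ones. The log2 fold change was 1.37 ± 0.04 (adjusted p = 1.62e-17) in cPLA_2_ WT and 0.29 ± 0.04 (adjusted p = 3.07e-06) in cPLA_2_ KO cells, which makes *Birc3* the one member that rose in both, and the interaction was -1.08 ± 0.06 (adjusted p = 1.16e-12). In LPS libraries it lay between 13882 and 14588, with a median of 14249 and a change of 2.20 ± 0.03 (adjusted p = 2.07e-24), with 2.14 and 2.26 for the labels cPLA_2_ WT and cPLA_2_ KO. The LPS mean was 1.73 times that of confined cPLA_2_ WT cells. Its paralog *Birc2* changed by 0.97 ± 0.07 in cPLA_2_ WT and -0.29 ± 0.07 in cPLA_2_ KO cells, and *Xiap* by 0.25 ± 0.08 and 0.21 ± 0.08.

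*Samsn1* (identifier GSMG0021956, chromosome 16, 75655682 to 75750221, minus strand, 8 exons in its canonical transcript) encodes an adaptor with SH3 and SAM domains that dampens receptor signalling in lymphocytes. It was present at 3331, 3504 and 3366 normalized counts in nonconfined cPLA_2_ WT and 3654, 3539 and 3745 in nonconfined cPLA_2_ KO libraries. Confined cPLA_2_ WT libraries held 11979, 11684 and 11438 and confined cPLA_2_ KO libraries 3709, 3513 and 3426. Confined cPLA_2_ KO libraries overlapped the nonconfined groups, and confined cPLA_2_ WT libraries lay far above them. The change with confinement was 1.78 ± 0.05 (adjusted p = 3.52e-18) in cPLA_2_ WT cells and -0.04 ± 0.05 (adjusted p = 0.521) in cPLA_2_ KO cells, of which the latter was not called; the interaction was -1.82 ± 0.07 (adjusted p = 2.97e-15). LPS libraries held 13065 to 14525, with a median of 13466 and a change of 1.95 ± 0.03 (adjusted p = 2.97e-22), with 2.00 and 1.90 for the labels cPLA_2_ WT and cPLA_2_ KO. Of the members that rose with LPS, *Samsn1* was the one for which confined cPLA_2_ WT cells came nearest to LPS-treated cells, the LPS mean being 1.17 times theirs and the log2 difference -0.22 ± 0.04 (adjusted p = 7.97e-05); with the same total per library that difference was 0.07, and its adjusted p ran from 3.64e-05 to 0.184 over the alternatives. Its paralogs *Sash1* and *Sash3* changed by -0.73 ± 0.18 and -0.55 ± 0.09 with confinement in cPLA_2_ WT cells.

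*Relt* (identifier GSMG0052114, chromosome 7, 100495055 to 100512621, minus strand, 11 exons in its canonical transcript), a receptor of the TNF receptor superfamily expressed on blood cells, was lower after confinement and after LPS. It ranged over 2467 to 2876 normalized counts in nonconfined cPLA_2_ WT and 2595 to 2659.6 in nonconfined cPLA_2_ KO libraries, over 986 to 1084 in confined cPLA_2_ WT and over 1526 to 1659.5 in confined cPLA_2_ KO libraries. All confined libraries were below the nonconfined ones, and the confined cPLA_2_ WT libraries were the lowest of the 4 groups. The log2 fold change with confinement was -1.34 ± 0.06 (adjusted p = 3.02e-14) in cPLA_2_ WT and -0.73 ± 0.06 (adjusted p = 1.85e-09) in cPLA_2_ KO cells, and the interaction, 0.61 ± 0.08 (adjusted p = 8.25e-06), was the single positive one called among the members. LPS libraries held 1118 to 1224, with a median of 1171 and a change of -1.17 ± 0.04 (adjusted p = 2.26e-16), with -1.15 and -1.18 for the labels cPLA_2_ WT and cPLA_2_ KO. Confined cPLA_2_ WT libraries lay -0.18 ± 0.05 (adjusted p = 0.00551) from LPS libraries, a call that was lost with TMM scaling (-0.11) and edgeR (-0.11) and whose sign turned with the same total per library (0.11). The adjusted p of this result ran from 0.00276 to 0.089 over the alternatives. The paralogs *Rell1* and *Rell2* changed by 0.38 ± 0.10 and -1.15 ± 0.32 with confinement in cPLA_2_ WT cells.

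*Cacnb3* (identifier GSMG0018877, chromosome 15, 98530209 to 98542417, plus strand, 13 exons in its canonical transcript) encodes a beta subunit of voltage-gated calcium channels and marks mature DCs in many tissues. It ranged over 2105 to 2242 normalized counts in nonconfined cPLA_2_ WT, 2378 to 2503 in nonconfined cPLA_2_ KO, 1013 to 1098 in confined cPLA_2_ WT and 681 to 787 in confined cPLA_2_ KO libraries, and these ranges do not overlap. Like *Fscn1*, it fell with confinement in both genotypes and further in cPLA_2_ KO cells. The change was -1.01 ± 0.06 (adjusted p = 2.11e-12) in cPLA_2_ WT and -1.75 ± 0.06 (adjusted p = 9.48e-16) in cPLA_2_ KO cells, and the interaction -0.74 ± 0.08 (adjusted p = 3.02e-07). LPS libraries held 5222 to 5843, with a median of 5308 and a change of 1.24 ± 0.04 (adjusted p = 3.64e-17), with 1.29 and 1.19 for the labels cPLA_2_ WT and cPLA_2_ KO; with the same total per library the change was 0.74. Of its paralogs, *Cacnb1* changed by 1.04 ± 0.13 with confinement in cPLA_2_ WT and by -0.08 ± 0.13 in cPLA_2_ KO cells. *Cacnb2* changed by -0.60 ± 0.23 in cPLA_2_ WT and -0.60 ± 0.23 in cPLA_2_ KO cells, and *Cacnb4* by -1.35 ± 0.36 in cPLA_2_ KO cells, while in cPLA_2_ WT cells *Cacnb4* was not called (0.0035 ± 0.36).

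*Tmem123* (identifier GSMG0055921, chromosome 9, 7764078 to 7794331, plus strand, 5 exons in its canonical transcript) encodes porimin, a mucin-like membrane protein. It ranged over 27802 to 29618 normalized counts in nonconfined cPLA_2_ WT, 27872 to 28379 in nonconfined cPLA_2_ KO, 36960.0 to 37705 in confined cPLA_2_ WT and 17941 to 19734 in confined cPLA_2_ KO libraries. The nonconfined groups overlapped, and the confined groups lay on either side of them. With confinement it changed by 0.36 ± 0.05 (adjusted p = 9.32e-07) in cPLA_2_ WT and -0.58 ± 0.05 (adjusted p = 1.85e-09) in cPLA_2_ KO cells, with an interaction of -0.94 ± 0.07 (adjusted p = 2.79e-10); with the same total per library the change in cPLA_2_ WT cells was 0.14 and was called. LPS libraries held 60861 to 68610.3, with a median of 65225 and a change of 1.19 ± 0.03 (adjusted p = 2.45e-18), with 1.15 and 1.22 for the labels cPLA_2_ WT and cPLA_2_ KO, and 0.69 for the pooled labels with the same total per library. *Tmem123* and *Birc3* both lie on chromosome 9, with 54373 bases between the end of the former and the start of the latter in the table.

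*Anxa3* (identifier GSMG0040584, chromosome 5, 96941243 to 96993827, plus strand, 13 exons in its canonical transcript) encodes an annexin, a protein that binds phospholipids in the presence of calcium. The highest of its 6 group means was 2.01 times the lowest, the smallest such ratio among the members. It ranged over 3692 to 3757 normalized counts in nonconfined cPLA_2_ WT, 3845 to 4301 in nonconfined cPLA_2_ KO, 4290.1 to 4564 in confined cPLA_2_ WT and 3877 to 3961 in confined cPLA_2_ KO libraries. Confined cPLA_2_ KO libraries overlapped the nonconfined cPLA_2_ KO libraries, while confined cPLA_2_ WT libraries lay above nonconfined cPLA_2_ WT libraries. The change with confinement was 0.26 ± 0.05 (adjusted p = 4.12e-05) in cPLA_2_ WT and -0.06 ± 0.05 (adjusted p = 0.261) in cPLA_2_ KO cells, and the interaction -0.33 ± 0.06 (adjusted p = 5.41e-04). Without nonconfined cPLA_2_ KO replicate 2 the change in cPLA_2_ KO cells was -0.11 and was called, its adjusted p running from 0.0481 to 0.654 over the alternatives. With the same total per library the values were 0.04 in cPLA_2_ WT cells and -0.14 for the interaction, neither of them called, so both calls depend on the scaling. LPS libraries held 7184 to 7798, with a median of 7357 and a change of 0.93 ± 0.03 (adjusted p = 1.08e-16), with 0.99 and 0.86 for the labels cPLA_2_ WT and cPLA_2_ KO, and 0.43 for the pooled labels with the same total per library. Of the 7 other annexins tested, all but *Anxa6* (0.0028 ± 0.03) were called higher with LPS, from 0.33 ± 0.03 for *Anxa1* to 1.62 ± 0.03 for *Anxa2*. Among 19 tested paralogs of members, annexins included, 12 rose and 5 fell with confinement of cPLA_2_ WT cells (median 0.41), 9 rose and 6 fell in cPLA_2_ KO cells (median 0.10), and the interaction was negative for 8 and positive for 0. With LPS 12 of these paralogs rose and 5 fell. Among all tested genes the shares that rose and fell were 28.2% and 28.4% in cPLA_2_ WT cells, 22.8% and 23.4% in cPLA_2_ KO cells and 37.2% and 34.3% with LPS, with 15.6% negative and 10.2% positive for the interaction.

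**Figure D2:**
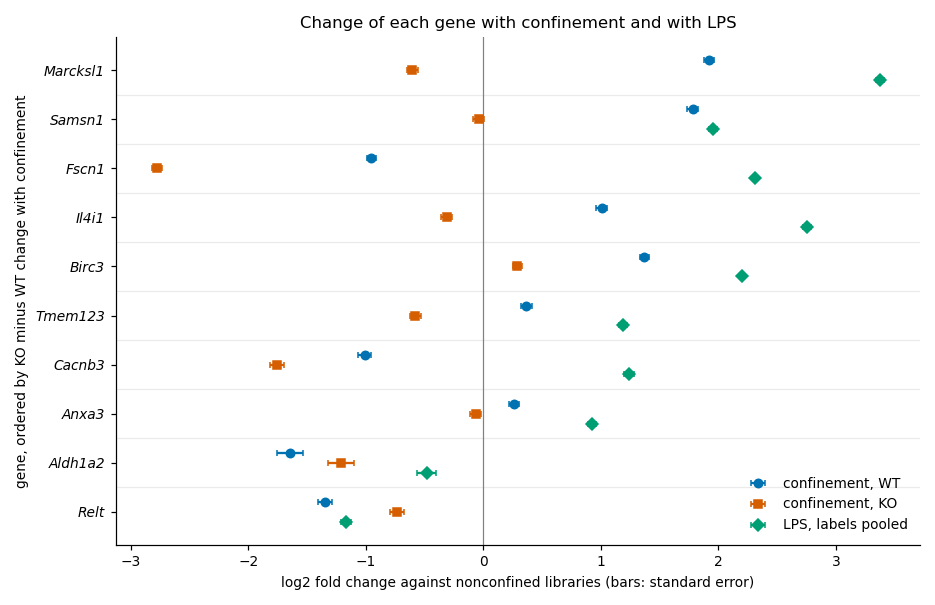
Log2 fold changes from limma against nonconfined libraries, on log2(normalized count + 1), with bars of 1 standard error: confinement in cPLA_2_ WT (blue circles), confinement in cPLA_2_ KO (orange squares) and LPS with labels pooled (green diamonds), genes ordered by the difference between genotypes in the change with confinement. From *Marcksl1* to *Anxa3* the orange square lies left of the blue circle, and for *Aldh1a2* and *Relt* it lies right of it; LPS values run from -1.17 for *Relt* to 3.37 for *Marcksl1*.

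The calls between genotypes in nonconfined cells were small and depended on single libraries and on the settings of the analysis. *Fscn1* was higher in cPLA_2_ KO cells by 0.14 ± 0.04 (adjusted p = 0.033), and was not called without nonconfined cPLA_2_ WT replicate 2 (0.13), cPLA_2_ WT replicate 3 (0.12), cPLA_2_ KO replicate 1 (0.13) or cPLA_2_ KO replicate 3 (0.12). Nor was it called with no filter (0.14), with the same total per library (0.10) or with the compared groups alone (0.14); its adjusted p ran from 0.00547 to 0.152 over the alternatives. *Aldh1a2* differed by -0.45 ± 0.11 (adjusted p = 0.0162), and was not called without nonconfined cPLA_2_ WT replicate 1 (-0.44), cPLA_2_ WT replicate 2 (-0.42), cPLA_2_ KO replicate 1 (-0.41) or cPLA_2_ KO replicate 3 (-0.44); its adjusted p ran from 0.00221 to 0.0806 over the alternatives. Of the members not called by limma in the main analysis, *Anxa3* was called without nonconfined cPLA_2_ KO replicate 2 (0.19) or LPS replicate 1 or 2 labelled cPLA_2_ KO (0.14). *Cacnb3* was called without confined cPLA_2_ KO replicate 1 or LPS replicate 1 labelled cPLA_2_ KO (0.18), and *Birc3* without nonconfined cPLA_2_ KO replicate 2 (-0.12). *Anxa3* and *Cacnb3* were also called with a filter of 100 (0.14 and 0.18), with TMM scaling (0.15 and 0.18), by edgeR (0.15 and 0.18) and by DESeq2 (0.14 and 0.17), and *Il4i1* with the same total per library (-0.12). The log2 differences of the 8 members not called lay between -0.09 for *Il4i1* and 0.18 for *Cacnb3*.

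In the order of group means, the LPS groups stood highest for every member except *Aldh1a2* and *Relt*. Between the labels *Marcksl1* and *Birc3* differed by 0.05 and 0.04 on the log2 scale, and neither was called by the unpaired test. Confined cPLA_2_ WT cells came next for *Il4i1*, *Marcksl1*, *Samsn1*, *Tmem123*, *Birc3* and *Anxa3*, the last with an overlap with nonconfined cPLA_2_ KO cells. For *Fscn1* and *Cacnb3* the order from low to high was confined cPLA_2_ KO, confined cPLA_2_ WT, nonconfined cPLA_2_ WT, nonconfined cPLA_2_ KO and LPS. *Aldh1a2* and *Relt* were highest in nonconfined cells.

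Over the 18 libraries, the 28 pairs among the 8 members other than *Aldh1a2* and *Relt* had Pearson correlations between 0.521 and 0.988, with a median of 0.912, on log2(normalized count + 1). *Relt* correlated with the other 9 members at between -0.876 and 0.617, and *Aldh1a2* at between -0.221 and 0.625. The libraries share their treatment groups, so these values are a description. Among 10554 genes with a symbol and a mean of at least 100 normalized counts, those most like *Marcksl1* were *Ncoa7* (r = 0.998) and *Gpr85* (r = 0.997), those most like *Samsn1* were *Oasl1* (r = 0.998) and *Rsad2* (r = 0.998), and those most like *Birc3* were *Clic4* (r = 0.998) and *Cxcl16* (r = 0.998). *Tmem123* was most like *Gypc* (r = 0.997) and *Oas1a* (r = 0.997), *Il4i1* most like *Pakap* (r = 0.998) and *Otud5* (r = 0.998), and *Anxa3* most like *Hp* (r = 0.994) and *Rab21* (r = 0.993). *Fscn1* had *Uba7* (r = 0.994) and *H2-T24* (r = 0.993) nearest to it, and *Cacnb3* had *Igsf9* (r = 0.993) and *Nudt17* (r = 0.992). For *Aldh1a2* the nearest genes were *Ltb* (r = 0.968) and *Ly6e* (r = 0.967), and for *Relt* *Fam53b* (r = 0.995) and *Rasgrp4* (r = 0.995). Of these, *Rsad2*, *Oasl1* and *Oas1a* are known as antiviral genes that interferon induces.

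Since *Marcksl1*, *Samsn1* and *Birc3* rose together in confined cPLA_2_ WT cells and with LPS, promoter sequences of the members were searched for the letters of transcription factor motifs. RefSeq promoters of 300 bases around the gene start (GRCm38.p6, another build than that of the table) were matched by symbol for 9 of the 10 members, with 11 sequences; *Anxa3* was not matched. On both strands, 0 of the 11 held the κB consensus, 0 held TGANTCA, letters of an AP-1 site, and 1 held GAAANNGAA, letters found in interferon-stimulated response elements. Of all 32851 promoters of the same length, 4.51% held the κB consensus, 7.81% TGANTCA and 8.56% GAAANNGAA. The match was in the first of the *Cacnb3* promoters, at bases 184 to 192, and overlapped no other motif.

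The promoters of the members with the largest rise in confined cPLA_2_ WT cells and the *Cacnb3* promoter with the match are shown 5′ to 3′, with capitals for the match and no capitals where none of the letters was found. They lie at chr4:129513331-129513630, plus strand (*Marcksl1*), chr16:75909217-75909516, minus strand (*Samsn1*), chr9:7873121-7873420, minus strand (*Birc3*) and chr15:98632078-98632377, plus strand (*Cacnb3*).
Marcksl1 promoter: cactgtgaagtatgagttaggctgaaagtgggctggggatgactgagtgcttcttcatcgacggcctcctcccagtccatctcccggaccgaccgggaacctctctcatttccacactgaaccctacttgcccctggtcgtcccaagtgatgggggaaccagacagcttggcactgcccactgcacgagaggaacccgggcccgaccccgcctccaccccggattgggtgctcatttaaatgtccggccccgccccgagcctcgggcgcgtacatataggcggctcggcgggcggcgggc
Samsn1 promoter: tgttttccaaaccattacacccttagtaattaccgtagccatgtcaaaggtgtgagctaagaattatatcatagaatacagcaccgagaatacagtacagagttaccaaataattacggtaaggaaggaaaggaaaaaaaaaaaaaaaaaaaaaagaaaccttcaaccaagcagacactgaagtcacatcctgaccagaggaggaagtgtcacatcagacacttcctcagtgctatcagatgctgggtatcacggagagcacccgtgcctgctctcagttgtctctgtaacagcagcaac
Birc3 promoter: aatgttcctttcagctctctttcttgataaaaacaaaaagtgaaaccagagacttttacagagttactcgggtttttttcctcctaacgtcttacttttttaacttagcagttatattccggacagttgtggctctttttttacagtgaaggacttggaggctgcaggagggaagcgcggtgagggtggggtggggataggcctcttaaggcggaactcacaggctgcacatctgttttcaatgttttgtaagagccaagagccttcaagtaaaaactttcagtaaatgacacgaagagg
Cacnb3 promoter: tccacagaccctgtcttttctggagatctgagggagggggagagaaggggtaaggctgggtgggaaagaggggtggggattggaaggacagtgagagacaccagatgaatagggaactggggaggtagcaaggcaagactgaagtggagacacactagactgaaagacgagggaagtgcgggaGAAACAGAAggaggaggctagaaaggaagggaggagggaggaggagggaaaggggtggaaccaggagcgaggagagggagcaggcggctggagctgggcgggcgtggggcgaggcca

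Base composition differed among them: G and C made up 63.7% of the *Marcksl1* promoter, 41.7% of that of *Samsn1*, 43% of that of *Birc3* and 78% of that of *Aldh1a2*, against a median of 52.7% over all promoters. The *Aldh1a2* promoter held 50 CG pairs and those of *Samsn1* and *Birc3* held 5 and 7, where the median was 7. The promoters of *Marcksl1*, *Samsn1* and *Birc3* thus differed in base composition and held none of the letters searched for. Whether the annotated starts are those used in these cells was not tested, and a window without a match says nothing of sites elsewhere.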

How the data were processed

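The deposited table holds signal values per gene that the authors made with STAR 2.7.5a, featureCounts 1.5.0 and DESeq2 under R 3.5.3 on GRCm39, each read count being divided by the size factor of its library; the strand setting of the counting is not given. Multiplying each library by a single factor gave whole reads for 100% of values within a tolerance of 1e-06. Positions come from the table and exons from GENCODE vM39. The test was limma 3.58.1 (lmFit, contrasts.fit, eBayes with a trend, R 4.3.3) on log2 of the normalized count with a pseudocount of 1, with a mean for each of the 6 groups, for genes with 10 normalized counts or more in at least 3 libraries. Benjamini-Hochberg adjustment covered the tested genes of a comparison.

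Members and gene lists were chosen with earlier results of these data known. Named genes were the 10 members, *Pla2g4a*, the sex-linked *Ddx3y*, *Eif2s3y* and *Xist*, tested paralogs, at most the 3 largest rises and 3 largest falls of a list per comparison among genes that passed and averaged 100 normalized counts or more, and the 2 genes most correlated with each member. The lists were other genes of the program, NF-κB signalling, retinoic acid, actin and membrane linkage, amino acid metabolism, paralogs, and cell type markers, whose most abundant gene was named. Some genes stand on several lists, among them *Relb*, *Nfkb2*, *Marcks*, *Birc2* and *Xiap*, so the counts of the lists are not independent. Alternatives were pseudocounts of 0.5 and 5, no filter and a filter of 100, the same total per library, TMM, edgeR 4.0.16 and DESeq2 1.42.0 on recovered reads, the compared groups alone, a replicate block, the thresholds of the study's methods, leaving out each library and, chosen after seeing the data, LPS libraries of a single label. Figures were drawn with matplotlib 3.10.9.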

Additional observations from a re-analysis of the deposited data

Results flagged for a closer look

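The change with confinement differed between cPLA_2_ WT and cPLA_2_ KO cells by the interaction in limma for 9 of the 10 members, negative for 8 (15.6% of tested genes) and positive for 1 (10.2%). Given as the change in cPLA_2_ KO minus that in cPLA_2_ WT cells on the log2 scale, the difference was -2.52 for *Marcksl1*, -1.82 for *Samsn1*, -1.32 for the shared *Il4i1* entry and -0.94 for *Tmem123*, members whose level in cPLA_2_ WT cells rose. *Marcksl1*, *Il4i1* and *Tmem123* fell in cPLA_2_ KO cells, and *Samsn1* was not called there. For *Birc3*, which rose in both genotypes, the difference was -1.08. *Fscn1* and *Cacnb3* fell in both genotypes, and the differences were -1.82 and -0.74. *Relt* also fell in both, further in cPLA_2_ WT cells, with a difference of 0.61. *Anxa3* had a difference of -0.33, which was not called with the same total per library (-0.14). Transcripts of *Ddx3y* were under 10 normalized counts in the cPLA_2_ WT libraries of this comparison and at 874 or more in the cPLA_2_ KO libraries. Neutrophil and eosinophil marker sums were higher in cPLA_2_ KO than in cPLA_2_ WT libraries of the same condition. Of the 7 eosinophil markers, 5 were called higher and 2 lower in confined cPLA_2_ KO libraries (18.8% and 20.6% of tested genes). The interaction was negative for 5 of the 10 DC markers (15.6% of tested genes) and positive for 0 (10.2%). For the 10 neutrophil markers it was negative for 1 and positive for 8, with a median of 0.62. For the 7 eosinophil markers it was negative for 1 and positive for 0. The part of donor sex and of these markers in the differences was not tested, and genotype and donor sex cannot be told apart.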

How the results depend on the processing

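Counts of called members stayed within 1.5 times their value in the report in 490 cases over all alternatives, and in 36 they did not. For single members, 2550 values kept their direction and their side of the threshold, 26 gained a call, 30 lost one and 24 changed sign. The 6 higher and 4 lower members for confinement of cPLA_2_ WT cells, the 8 lower for the interaction and the 8 lower for the genotypes in confined cells stayed within 1.5 times under each alternative run. TMM moved the median of all genes by less than 0.1 in each comparison. The replicate block gave the same counts of members in each comparison. Between libraries that carry the same replicate number, residuals correlated at -0.14 to 0.34, with 4 of 15 over 0.1. These 4 were replicates 1 and 2 of the genotypes in confined cells (0.34 and 0.21) and of confinement of cPLA_2_ WT cells (0.18 and 0.11). The values do not settle whether the numbers pair libraries, and the main tests did not pair them.

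Counts that moved were small ones. For the interaction, 2 members were positive (1 in the report) with a pseudocount of 5 or a filter of 100. The same total per library and the compared groups alone also gave 2. On leaving out a library 1 to 2 were positive, and the second is *Aldh1a2*. With the same total, 4741 of all genes were positive, against 1823 in the main analysis. Between genotypes in nonconfined cells, members higher in cPLA_2_ KO numbered 0 with no filter, the same total, the compared groups alone or the thresholds of the study's methods, 3 with a filter of 100, TMM, edgeR or DESeq2, and 0 to 3 on leaving out a library. Members lower there numbered 2 with the same total, 0 with the thresholds of the study's methods and 0 to 2 on leaving out a library. Of all genes in that comparison, 757 were higher and 1045 lower with the same total and 906 and 686 with TMM, against 854 and 734 in the main analysis. In both directions together edgeR called 1576 and DESeq2 2028 genes there, against 1588 by limma. For the pseudocount of 5, no filter, the filter of 100, the compared groups alone and leaving out a library, no such count is given. The thresholds of the study's methods ask for an unadjusted p and a fold change. With them 0 members rose with confinement of cPLA_2_ KO cells, 1 fell with LPS and 0 were higher in confined cPLA_2_ KO than in LPS libraries. The share of all genes under those thresholds is not given here, so these counts are not set against it. For the remaining moves the cause was not tested.

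Signs changed for small values. With the same total per library *Relt* was -0.031 between genotypes in nonconfined cells, *Aldh1a2* 0.14 in confined cells, and *Samsn1* and *Relt* 0.066 and 0.11 in confined cPLA_2_ WT cells against LPS; this scaling shifts all genes, as given in the report. With DESeq2 *Relt* was -0.0016 in nonconfined cells and *Samsn1* -0.0003 between the LPS labels; the cause was not tested. On leaving out a library, the genotypes in nonconfined cells differed by -0.0051 to 0.081 for *Marcksl1* and -0.043 to 0.068 for *Relt*, and in confined cells by -0.048 to 0.042 for *Aldh1a2*. The LPS labels then differed by -0.030 to 0.047 for *Samsn1*, -0.022 to 0.055 for *Tmem123*, -0.015 to 0.044 for *Anxa3*, -0.044 to 0.0055 for *Relt* and -0.20 to 0.058 for *Aldh1a2*; none of these values was called.

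With LPS libraries of a single label against nonconfined libraries of the same label, the counts of members higher and lower stayed within 1.5 times those of the pooled labels. Each value of a member rests on 216 reads or more, the fewest for *Aldh1a2* in confined libraries, and 3 libraries per group limit the precision.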

Other observations

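Of 35 other genes of the program, all of them tested, 29 rose and 6 fell with confinement of cPLA_2_ WT cells (median 1.26, all tested genes -0.0055), and 15 rose and 11 fell in cPLA_2_ KO cells (median 0.06). The interaction was negative for 28 and positive for 0 by limma (median -1.28, all tested genes 0.05), and with LPS 31 rose and 1 fell (median 2.20). Of all tested genes 28.2% rose and 28.4% fell with confinement of cPLA_2_ WT cells, 22.8% and 23.4% in cPLA_2_ KO cells, 37.2% and 34.3% with LPS, and the interaction was negative for 15.6% and positive for 10.2%. *Il12b*, a cytokine subunit, changed by 7.21 ± 0.11 and the costimulatory receptor *Cd40* by 3.45 ± 0.06 with confinement of cPLA_2_ WT cells. The largest falls of the list there were -3.87 ± 0.26 for *Slco5a1*, -1.86 ± 0.17 for *Tnfrsf4* and -1.16 ± 0.09 for *Nudt17*.

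Of 25 genes of NF-κB signalling around *Birc3*, 23 rose and 0 fell with confinement of cPLA_2_ WT cells (median 0.97), and 17 rose and 3 fell in cPLA_2_ KO cells (median 0.25). The interaction was negative for 17 and positive for 1 (median -0.53), and with LPS 24 rose and 0 fell (median 1.32), by limma. Among all tested genes the shares that rose and fell were 28.2% and 28.4% in cPLA_2_ WT cells, 22.8% and 23.4% in cPLA_2_ KO cells and 37.2% and 34.3% with LPS, with 15.6% negative and 10.2% positive for the interaction. *Tnfaip3*, an inhibitor of the pathway, changed by 4.34 ± 0.06 and *Nfkbia*, another, by 2.29 ± 0.06 with confinement of cPLA_2_ WT cells.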
